A study of Homo sapiens with 9 samples.

Results

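The addition of uridine to LX-2 cells that had been activated with TGF-β was examined at the level of gene expression. LX-2 cells derive from human hepatic stellate cells that were immortalised in culture, and all libraries carried its unmodified genotype. The comparison held 6 of the 9 RNA-seq libraries of the series. In 3 of them (T1, T2 and T3) the cells had received TGF-β, and in the other 3 (U1, U2 and U3) they had received TGF-β and uridine, and both groups were labelled Day 1. Cells were exposed to TGF-β at 25 ng/ml for 12 h, after which the medium was exchanged for complete medium that contained uridine. A single uridine dose, chosen from a viability assay, is stated for other experiments on TGF-β-treated LX-2 cells, but it is not repeated for the sequenced cells. Their hour of harvest and whether the TGF-β cells also had their medium exchanged were not given in the sources used here. The 3 untreated libraries were left out of the comparison. Nothing in the labels says that the libraries of a group came from separate cultures, so the p-values measure the spread between these libraries, which may be technical.

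Hepatic stellate cells store retinoids and lipid droplets in the resting liver. In injured liver they turn into contractile, matrix-producing myofibroblasts, and TGF-β is the main signal that drives this change through SMAD proteins. Uridine is a pyrimidine nucleoside that cells take up and use for RNA, for UDP-sugars and, after cleavage by uridine phosphorylase, as a source of sugar and uracil. The study asked how uridine alters activated stellate cells, with attention to cyclic AMP signalling, lipid storage and the adenosine A1 receptor.

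The 6 libraries were of nearly equal depth, with 40795655 to 41467124 counts on genes, of which the 13 mitochondrially encoded messenger RNAs took 11.2% to 13%. The 3 uridine libraries differed more among themselves than the 3 TGF-β libraries did. The chi-square statistic per degree of freedom over genes was 10.9 to 37.7 for pairs of uridine libraries and 3.61 to 7.87 for pairs of TGF-β libraries. The slope of log2 CPM on the GC fraction of genes was 10.4 in U2 and 5.50 in U3, on either side of 7.61 in U1 and of 7.76 to 8.62 in the TGF-β libraries. The stellate label was checked against marker genes. VIM, SPARC, THY1 and TAGLN were well represented and COL1A1 had 2398 to 3089 reads, whereas COL1A2 and HAND2 had at most 1 read and COL3A1 had 42 to 102. The simple keratin KRT7 had 90751 to 128005 reads and KRT18 had 80218 to 104379. Of the other epithelial markers, ELF3 had 447 to 607 reads, CLDN7 141 to 293 and KRT19 36 to 66, while EPCAM, ESRP1 and GRHL2 had at most 4. Of the 10 epithelial markers listed, 7 had enough reads to be tested, CDH1, SOX9 and CLDN4 among them. The list of stellate and fibroblast markers held 24 genes, of which 17 were tested. Of the hepatocyte markers APOA1 had at most 1 read, SERPINA1 at most 12 and HNF4A 29 to 65.

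Uridine was accompanied by changes of moderate size in a small share of genes. Of 20777 listed genes, 13011 were tested with edgeR's quasi-likelihood test, in which 141 genes (1.08%) were higher and 176 (1.35%) were lower in the uridine libraries at a Benjamini-Hochberg adjusted p under 0.05. A gene is called higher or lower below when it passed that test. Values are counts scaled to library size (CPM) after TMM normalization, and fold changes are log2 of the uridine libraries over the TGF-β libraries with their standard error (SE). The median log2 fold change was 0.53 among the genes called higher and −0.58 among those called lower, and 16 and 18 genes of each kind passed 1 on the log2 scale. The median over all tested genes was 0.02. All 317 called genes had values that did not overlap between the groups. Over all tested genes the uridine libraries lay wholly above the TGF-β libraries in 13% and wholly below in 12.9%. Of 733 long non-coding genes tested, 16 were higher and 9 lower, and of 11764 protein-coding genes 123 were higher and 162 lower. In bulk RNA a lower level in every cell and a smaller number of cells with a transcript cannot be told apart.

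**Figure D1:**
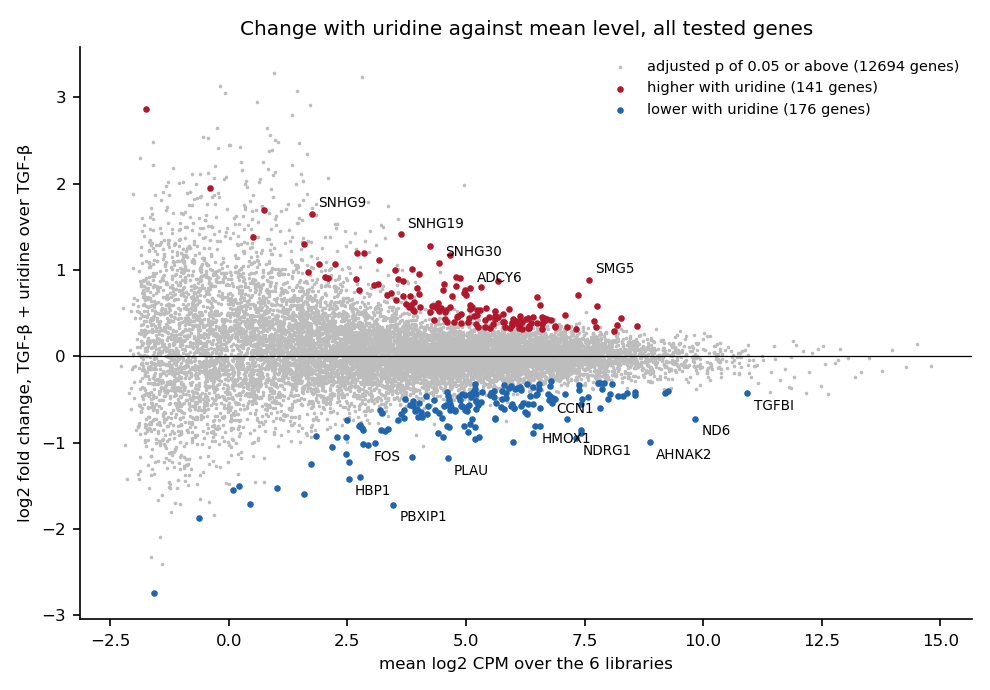
Each point is 1 of 13011 tested genes, with the mean log2 CPM over the 6 libraries on the x axis and the log2 fold change of TGF-β + uridine over TGF-β on the y axis. The 141 genes called higher (red) and the 176 called lower (blue) by edgeR lie mostly within 1 log2 unit of 0, and grey points with larger changes lie at low levels.

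The number of calls rested on single libraries. Without T1 the test called 12 genes higher and 17 lower, without T2 it called 6 and 8, without T3 8 and 15, and without U1 12 and 21. Without U2, the library with the steepest GC slope, it called 1168 and 1282, and without U3 it called 254 and 196. The sign of the fold change was kept by all 317 genes in each of these 6 fits. Because the groups of all these genes did not overlap, leaving out a library could hardly change the sign. The kept signs are therefore no test of direction. The genes called higher had a median GC content of 57.6% and those called lower 52.6%, against 49.3% for the tested genes with a known sequence. With offsets for GC content and gene length, 298 of the 312 called genes that could be fitted passed the test in the same direction. That fit called 1248 genes in all, so that it was easier to pass. The part of GC content in the calls was not tested.

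**Figure D2:**
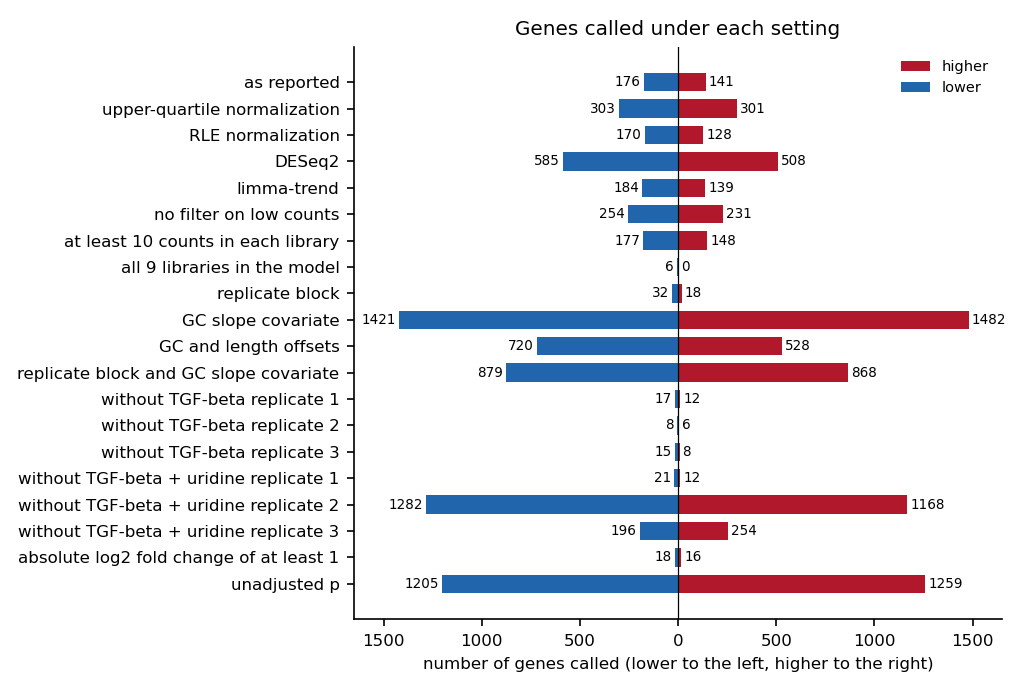
Bars give the number of genes called lower (blue, to the left) and higher (red, to the right) with uridine as reported and under each alternative setting, from 0 on a linear axis. Leaving out any TGF-β library or U1 left 29 calls or fewer in 3 of these 4 settings and 33 in the other, and leaving out U2 raised them to 2450.

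Only 14 of the 317 genes passed the test in all 6 fits with 1 library left out, 8 lower and 6 higher. Each of the other genes lost its call in at least 1 of these fits. These 14 were all the genes that the fit without T2 called, so the other fits did not narrow the set further. Among the 8 lower genes, AHNAK2, NDRG1, PBXIP1 and PLAU also passed in all 17 alternatives that gave a test. PBXIP1, which encodes a binding partner of PBX homeodomain proteins (chromosome 1, 154944076 to 154956123, GRCh38), stood at 5.83, 4.85 and 4.62 CPM in U1, U2 and U3 and at 16.9, 16.8 and 16.7 CPM in T1, T2 and T3. Its log2 fold change was −1.72 (SE 0.13, adjusted p 0.00176), the largest decrease among called genes whose mean log2 CPM reached 1. The scaffold protein gene AHNAK2 (chromosome 14, 104937244 to 104978357) was measured at 313, 302 and 327 CPM with uridine and at 638, 623 and 617 CPM with TGF-β alone. That was a 1.99-fold lower level (adjusted p 0.00111), with no overlap between the groups. NDRG1, a stress- and hypoxia-responsive gene, was at 105, 114 and 110 CPM with uridine and at 210, 218 and 205 CPM without it, a log2 fold change of −0.95 (SE 0.06, adjusted p 0.00111).

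The other 4 lower genes of this kind were HMOX1, MT1X, C6orf223 and IL17RC, the last 2 named after their values were seen. HMOX1 encodes haem oxygenase 1, which degrades haem, and gave 61.0, 68.4 and 62.2 CPM in U1 to U3 against 114, 108 and 112 CPM in T1 to T3. Metallothionein 1X (MT1X), a metal-binding protein, gave 117, 131 and 119 CPM against 237, 215 and 212 CPM. The log2 fold changes were −0.81 (SE 0.07, adjusted p 0.00244) and −0.86 (SE 0.08, adjusted p 0.00271). IL17RC, a subunit of the interleukin-17 receptor, was 1.91-fold lower and C6orf223 was 1.99-fold lower.

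Among the 6 higher genes were TNFRSF10D, SMG5, SNHG19, SNHG30 and GATD1, of which GATD1 was named after its values were seen. TNFRSF10D encodes a decoy receptor for the death ligand TRAIL, and its level was 29.3, 25 and 26 CPM with uridine against 9.94, 12.7 and 10.4 CPM with TGF-β alone. Every uridine library was thus above every TGF-β library, with a log2 fold change of 1.28 (SE 0.12, adjusted p 0.00341). GATD1 was 1.82-fold higher (adjusted p 0.00271). SMG5 and the host genes SNHG19 and SNHG30 are described with RNA decay below.

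Among the 12 largest increases were also the chemokine gene CCL2 (4.87, 4.59 and 5.48 CPM against 2.35, 2.09 and 2.71 CPM), the chloride channel gene CLCN2, FAM167B, ANKRD10 and the non-coding RNAs SNHG9, FOXP4-AS1, ATP2A1-AS1 and MHENCR. Their log2 fold changes ran from 1.01 in ANKRD10 to 1.65 in SNHG9. ATP2A1-AS1, CLCN2 and, among the lower genes, BNIP3L, HBP1, NKILA and PLAU share exonic sequence with a tested gene on the opposite strand. So do ADCY3 (with CENPO), VCL (AP3M1), ATG13 (HARBI1) and CA9 (ARHGEF39), which are described below. Whether the counting used strand was not given in the sources used here. Exons shared with another tested gene on either strand were found in 36 of the 141 higher and 35 of the 176 lower genes, whose reads are uncertain to that extent. The 12 largest decreases included C1orf116 (−1.59), YPEL3 (−1.53), BNIP3L (−1.40), LOC105376292 (−1.25), NKILA (−1.23), OASL (−1.17), ABTB1 (−1.13) and CNGB1 (−1.05), on the log2 scale. Among the most abundant called genes, PABPC4, CLUH, PEA15 and LPCAT1 were higher by 1.22-fold to 1.36-fold. TGFBI, ND6 and YWHAQ were among the most abundant genes called lower, by 1.32-fold to 1.65-fold.

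**Figure D3:**
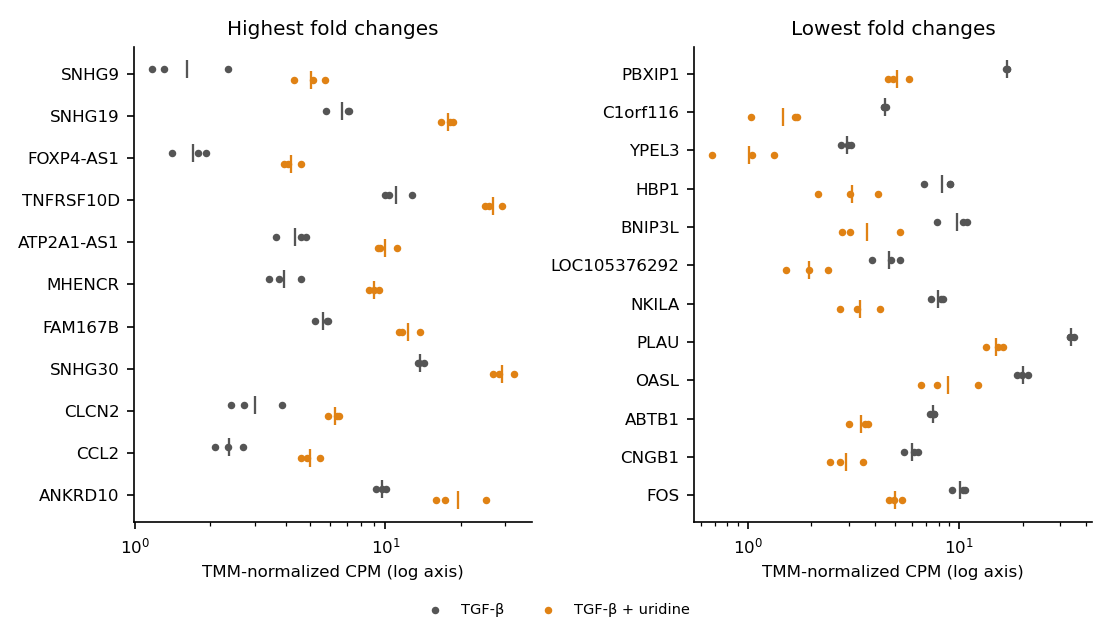
Points give the TMM-normalized CPM (log axis) in each of 3 TGF-β libraries (grey) and 3 TGF-β + uridine libraries (orange), with a bar at each mean, for 11 of the 12 genes with the largest increase and the 12 with the largest decrease. The groups do not overlap in any of the 23 genes.

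Lists of genes are described by the number called in each direction out of those tested and by their median, to be read against the 1.08% and 1.35% of all tested genes. Counts in brackets are genes higher and then lower by DESeq2, followed by those at an unadjusted edgeR p under 0.05. DESeq2 called 4.43% of its 11480 genes with an adjusted p higher and 5.1% lower, and 9.68% and 9.26% of all tested genes had an unadjusted p under 0.05, so that the bracketed counts are read against these larger shares. No list was chosen blind, since earlier results were known for all of them, and those described as written after values had been seen were added last. A list of markers and proposed targets of uridine, from ACTA2 and COL1A1 to ADORA1, had 11 tested genes, of which FOS was lower and 0 were higher (DESeq2 0 and 3, unadjusted 2 and 3). By limma-trend every list had the counts given for edgeR except plasminogen activation, with 3 lower, and pyrimidine metabolism, with 2 lower.

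Genes of the fibrotic response were examined first, since TGF-β had been given to activate the cells. Of 24 tested genes of a list on TGF-β and stellate activation, 3 were lower, CCN2 and TGFBI among them, and 0 were higher, with a median log2 fold change of −0.08 (DESeq2 1 and 5, unadjusted 1 and 7). CCN2, the connective tissue growth factor, stood at 4.48, 3.83 and 4.26 CPM against 7.09, 7.09 and 6.79 CPM, just inside the threshold (log2 fold change −0.74, SE 0.15, adjusted p 0.0493). TGFBI, an extracellular matrix protein named for its induction by TGF-β, was at 1675, 1791 and 1551 CPM against 2312, 2256 and 2159 CPM (adjusted p 0.0391). Neither CCN2 nor TGFBI passed the test when T1, T2, T3 or U1 was left out.

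The usual markers of stellate activation did not pass. ACTA2, α-smooth muscle actin, was at 20.4, 24.1 and 18.2 CPM with uridine and at 35.3, 29.5 and 25 CPM with TGF-β alone. Its groups did not overlap and its log2 fold change was −0.52 (SE 0.15), with an adjusted p of 0.104 that ranged from 0.00204 to 0.631 over 17 alternatives. COL1A1, the α1 chain of type I collagen, was at 64.2, 65.1 and 69.998 CPM against 65.8, 58.2 and 66.7 CPM. That was a log2 fold change of 0.06 (SE 0.08, adjusted p 0.713), and the groups overlapped. COL3A1 had a log2 fold change of 0.17 (SE 0.33, adjusted p 0.829) at 1.1 to 2.31 CPM. The collagen cross-linking enzyme LOX missed the threshold, at −0.39 (SE 0.09, adjusted p 0.0593).

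Of 19 tested genes of plasminogen activation and matrix proteases, 2 were lower, PLAU among them, and 0 were higher (DESeq2 0 and 5, unadjusted 1 and 6). PLAU encodes urokinase, which converts plasminogen to plasmin, and lies on chromosome 10 at 73909177 to 73917497. It was measured at 15.4, 16.2 and 13.4 CPM with uridine and at 35.0, 33.3 and 33.4 CPM without it, a 2.26-fold lower level (log2 fold change −1.18, SE 0.10, adjusted p 0.00198). The antisense gene C10orf55, named after its values were seen, overlaps exons of PLAU. It had 3 reads in each uridine library and 12 to 29 in the TGF-β libraries, and without strand these reads cannot be told apart from those of PLAU. The protease inhibitor TIMP2 was at −0.30 (SE 0.07, adjusted p 0.0555).

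CCN2 and CCN1 are also targets of the co-activator YAP, which binds DNA through TEAD proteins. Of 17 tested YAP/TEAD targets 2 were lower, namely these 2 genes, and the median log2 fold change was −0.15 (DESeq2 0 and 4, unadjusted 0 and 6). CCN1 stood at 85.5, 95.8 and 93.0 CPM against 123, 126 and 128 CPM (adjusted p 0.0155). The 250 bases before the start of CCN2 are shown because they hold the TEAD motif GGAATG in 3 places, which are in capitals (chr6:131951373-131951622, minus strand, RefSeq, GRCh38.p14).
CCN2: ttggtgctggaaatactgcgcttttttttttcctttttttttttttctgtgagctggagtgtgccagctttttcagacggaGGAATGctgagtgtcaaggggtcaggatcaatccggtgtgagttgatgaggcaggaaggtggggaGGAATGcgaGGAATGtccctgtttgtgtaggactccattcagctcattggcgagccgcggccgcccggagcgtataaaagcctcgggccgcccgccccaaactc
The motif, read on both strands, was in the same stretch of 13.2% of tested genes with a listed promoter, of 13.4% of the genes called higher and of 16.2% of those called lower. A match of letters is a description of the sequence and not of binding.

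Immediate early genes, which include subunits of AP-1, are switched on within minutes of a stimulus, in part through CREB. Of 20 tested genes FOS was lower and 0 were higher, and the median log2 fold change was −0.20 (DESeq2 1 and 5, unadjusted 1 and 8). Of the 20 genes, 13 had negative and 7 positive fold changes, against 46.4% negative over all tested genes. The uridine libraries lay wholly below the TGF-β libraries in 10 of them, against 12.9% of all tested genes. FOS encodes a subunit of AP-1 and lies on chromosome 14 at 75278774 to 75282230. Its level was 4.64, 5.38 and 4.94 CPM with uridine and 9.23, 10.7 and 10.5 CPM without it, a log2 fold change of −1.02 (SE 0.14, adjusted p 0.0145). The uridine values were thus about the same in all 3 libraries, yet the call was lost without T1, T2, T3 or U1, with an adjusted p of 0.0868 to 0.135.

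The AP-1 subunit JUN was at 36.6, 39.6 and 33.8 CPM against 47.6, 45.6 and 45.6 CPM (log2 fold change −0.34, SE 0.08, adjusted p 0.068). EGR1, a transcription factor of growth factor responses, had 1.31, 0.577 and 0.702 CPM against 2.50, 2.31 and 2.32 CPM. Its fold change of −1.46 on the log2 scale had an SE of 0.34 and an adjusted p of 0.0665. DUSP1, a phosphatase that acts on MAP kinases, was at −0.41 (SE 0.09, adjusted p 0.0622). In JUN, EGR1 and DUSP1 the groups did not overlap. Over 17 alternatives JUN and EGR1 passed the test in 6 and DUSP1 in 4.

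The promoter of FOS carries the half-site TGACG to which CREB binds, shown here in capitals in the 250 bases before the start (chr14:75278578-75278827, plus strand, RefSeq, GRCh38.p14).
FOS: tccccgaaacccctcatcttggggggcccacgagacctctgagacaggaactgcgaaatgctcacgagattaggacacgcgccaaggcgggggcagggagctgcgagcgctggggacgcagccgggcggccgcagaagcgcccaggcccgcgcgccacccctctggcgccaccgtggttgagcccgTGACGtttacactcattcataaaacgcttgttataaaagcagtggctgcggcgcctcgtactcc
The half-site begins 64 bases before the start. It was found on either strand in 35.6% of tested genes with a promoter, in 32.1% of those called higher and in 26.9% of those called lower. The AP-1 motif TGANTCA was in 6.25%, 9.82% and 6.92% of the same groups of promoters.

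The cyclic AMP pathway runs from receptors through G proteins to adenylyl cyclases, and from cyclic AMP to protein kinase A and CREB. Of 26 tested genes of this machinery, 2 were higher, 1 was lower and the median log2 fold change was 0.07 (DESeq2 3 and 2, unadjusted 4 and 2). Both higher genes were adenylyl cyclases, the enzymes that make cyclic AMP. ADCY6 was at 45.8, 41.1 and 42.4 CPM in U1 to U3 and at 24.3, 24.1 and 26.5 CPM in T1 to T3, a 1.73-fold higher level (log2 fold change 0.79, SE 0.08, adjusted p 0.00397). ADCY3 was at 110, 119 and 110 CPM against 83.2, 86.8 and 83.7 CPM (log2 fold change 0.42, SE 0.06, adjusted p 0.0196). The lower gene, CNGB1, encodes part of an ion channel gated by cyclic nucleotides and was at 3.52, 2.47 and 2.74 CPM against 6.38, 6.14 and 5.52 CPM.

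PRKACA, CREB1 and PDE4A did not pass the test. PRKACA, the catalytic subunit of protein kinase A, was at 126, 136 and 117 CPM against 124, 118 and 120 CPM, with overlapping groups and a log2 fold change of 0.07 (SE 0.07, adjusted p 0.669). CREB1 had 1.12, 1.08 and 1.97 CPM against 0.782, 0.898 and 0.708 CPM. The groups did not overlap, but U3 alone was far above the rest, and the log2 fold change of 0.80 had an SE of 0.35 (adjusted p 0.253). PDE4A, which degrades cyclic AMP, was at 0.23 (SE 0.06, adjusted p 0.106).

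Among receptors and transporters of nucleosides, 10 genes were tested and 0 were called in either direction by edgeR (DESeq2 0 and 1, unadjusted 1 and 2). ADORA1, the adenosine A1 receptor, which lowers cyclic AMP through an inhibitory G protein, was at 7.74, 7.63 and 5.69 CPM with uridine and at 4.61, 5.70 and 5.05 CPM with TGF-β alone. U3 fell among the TGF-β libraries, and the log2 fold change was 0.45 (SE 0.18, adjusted p 0.225). Over 17 alternatives its adjusted p was 0.0357 to 0.74, under 0.05 in 1 of them, the GC slope covariate. SLC29A3, a nucleoside transporter, was at −0.55 (SE 0.12, adjusted p 0.0573).

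Of 20 tested genes of uridine and pyrimidine metabolism 1 was lower and 0 were higher (DESeq2 2 and 3, unadjusted 2 and 3). This was CDA, cytidine deaminase, which converts cytidine to uridine and stood at 136, 164 and 134 CPM against 217, 202 and 193 CPM (log2 fold change −0.49, SE 0.09, adjusted p 0.0356). UPP1, the uridine phosphorylase that starts uridine breakdown, was at 48.2, 63.3 and 47.0 CPM against 57.6, 54.1 and 50.7 CPM. Its groups overlapped, at a log2 fold change of −0.04 (SE 0.12, adjusted p 0.907). CTPS1, which makes CTP from UTP, was at −0.35 (SE 0.08, adjusted p 0.0536), and CAD, which carries out the first steps of pyrimidine synthesis, was at 0.31 (SE 0.08, adjusted p 0.0689). Of 14 tested genes of UDP-sugar and hyaluronan synthesis 0 were called (DESeq2 1 and 0, unadjusted 1 and 0).

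Lipid genes were examined because stellate cells lose their lipid droplets on activation. Of 21 tested genes of fatty acid synthesis and lipid storage 0 were called, and the median log2 fold change was −0.01 (DESeq2 1 and 0, unadjusted 3 and 1). FASN, fatty acid synthase, was at 974, 1066 and 953 CPM with uridine against 939, 881 and 878 CPM (log2 fold change 0.15, SE 0.08, adjusted p 0.331). SREBF1, which encodes its activator SREBP-1, was at 289, 296 and 262 CPM against 274, 253 and 256 CPM (0.12, SE 0.07, adjusted p 0.43). The changes were thus small in both genes, and SREBF1 had overlapping groups.

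PLIN4, a coat protein of lipid droplets, was at 6.71, 5.93 and 6.57 CPM against 4.26, 3.59 and 2.88 CPM, and its log2 fold change of 0.84 (SE 0.19) had an adjusted p of 0.0622. PPARG, the main transcription factor of adipocytes, was at 21.8, 26.5 and 24.2 CPM against 18.3, 20.9 and 19.4 CPM (log2 fold change 0.30, SE 0.10, adjusted p 0.161). Both genes had uridine libraries wholly above the TGF-β libraries. PLIN4 passed in 5 of 17 alternatives and PPARG in 2. CD36 and PLIN1 had at most 1 read in each library and were not tested. In cholesterol synthesis and uptake 1 of 23 genes was lower and 0 were higher (DESeq2 0 and 1, unadjusted 3 and 3). This was HSD17B7, an enzyme of sterol synthesis (7.04, 8.68 and 6.14 CPM against 13.3, 12.8 and 13 CPM, adjusted p 0.0307).

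**Figure D4:**
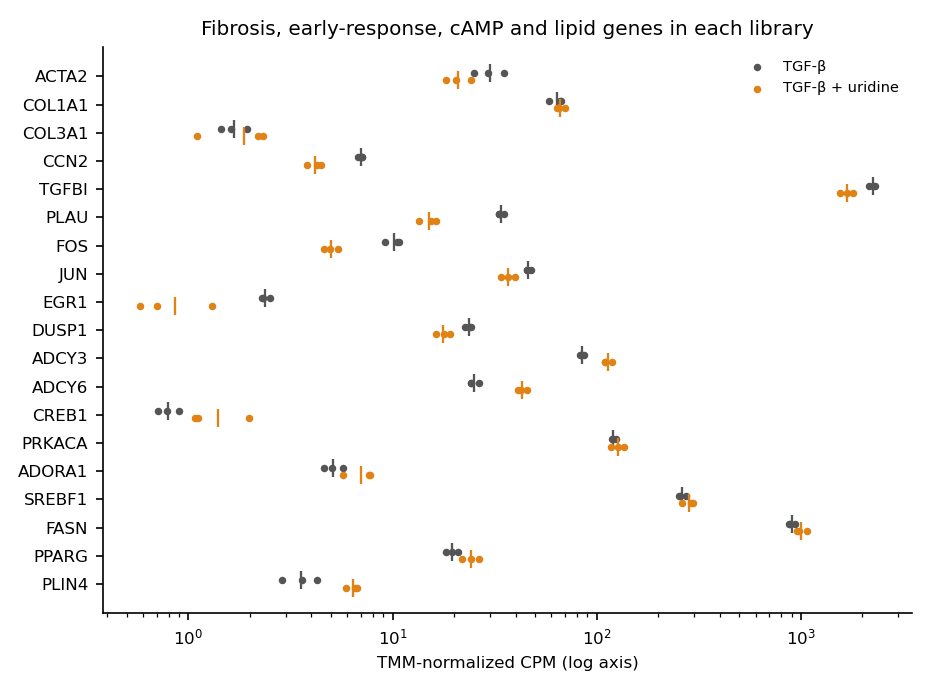
Points give the TMM-normalized CPM (log axis) in each of 3 TGF-β libraries (grey) and 3 TGF-β + uridine libraries (orange), with a bar at each mean, for 19 genes of fibrosis, the early response, cyclic AMP and lipid handling. CCN2, TGFBI, PLAU and FOS were called lower and ADCY3 and ADCY6 higher, whereas COL1A1, COL3A1, PRKACA, ADORA1 and SREBF1 overlap between the groups.

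Host genes of small nucleolar RNAs changed in both directions. These genes carry small nucleolar RNAs in their introns, and many of their spliced transcripts are degraded by nonsense-mediated decay once they are translated. Of 23 tested, 5 were higher (SNHG3, SNHG7, SNHG9, SNHG19 and SNHG30) and 3 were lower (GAS5, SNHG29 and SNHG32), with a median log2 fold change of 0.16. By DESeq2 7 were higher and 4 lower, and at an unadjusted p under 0.05 there were 8 and 8. SNHG19 (chromosome 16, 2154797 to 2155358) was at 16.7, 18.6 and 18.1 CPM against 7.11, 7.16 and 5.79 CPM, a 2.66-fold higher level (log2 fold change 1.41, SE 0.13, adjusted p 0.00271). SNHG30 was at 28.3, 32.6 and 26.9 CPM against 13.6, 14.3 and 13.5 CPM, and SNHG9 at 4.31, 5.74 and 5.12 CPM against 2.35, 1.31 and 1.17 CPM. In each of these genes the lowest uridine library was above the highest TGF-β library.

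GAS5, a host gene named for its accumulation in growth-arrested cells, went the other way. It gave 58.1, 62.3 and 57.3 CPM with uridine and 92.0, 93.1 and 93.0 CPM with TGF-β alone (log2 fold change −0.65, SE 0.06, adjusted p 0.00346). SNHG32 was at 28.0, 26.2 and 25.2 CPM against 44.4, 50.7 and 45.3 CPM (adjusted p 0.00388). SNHG3 shares exonic sequence with RCC1 on the same strand, so that its reads are uncertain. Without 1 library 2 to 7 host genes were higher and 0 to 7 lower.

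A list of nonsense-mediated decay factors, written after values had been seen, had 2 of 19 tested genes higher and 0 lower, with a median log2 fold change of 0.14 (DESeq2 4 and 0, unadjusted 6 and 0). SMG5, which recruits decay enzymes to phosphorylated UPF1, was at 244, 270 and 237 CPM in U1 to U3 and at 140, 133 and 133 CPM in T1 to T3. That was a 1.85-fold higher level (log2 fold change 0.89, SE 0.07, adjusted p 0.00198), and U2 was the highest of the 6 libraries. The helicase UPF1 was at 158, 161 and 151 CPM against 125, 124 and 121 CPM (adjusted p 0.03), and SMG9 was at 0.47 (SE 0.11, adjusted p 0.0587). Of 26 ribosome biogenesis genes, a list also written after values had been seen, REXO4 was higher (63.9, 66.1 and 59.6 CPM against 44.7, 49.0 and 50.6 CPM) and 0 were lower (DESeq2 2 and 0, unadjusted 5 and 1). Of 31 cytosolic ribosomal protein genes 0 were called, and their median was −0.06 (DESeq2 0 and 2, unadjusted 0 and 2).

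A further list written after values had been seen held FOXO targets and genes that respond to insulin, and 10 of its 22 tested genes were lower and 0 were higher, with a median log2 fold change of −0.38 (DESeq2 0 and 11, unadjusted 0 and 11). FOXO transcription factors act in the nucleus when insulin and growth factor signalling is low, and AKT keeps them out of it. The genes were BNIP3L, DDIT4, FOXO4, GABARAPL1, HBP1, IGF1R, IRS2, PINK1, SGK1 and TXNIP. Since the list was written with these values known, its count is a description. The count was 0 without T2, 1 without T1, T3 or U1, 11 without U2 and 9 without U3.

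HBP1, a transcriptional repressor that restrains the cell cycle (chromosome 7, 107168961 to 107202529), was at 4.13, 2.15 and 3.06 CPM against 6.86, 9.07 and 9.06 CPM, a 2.67-fold lower level (log2 fold change −1.42, SE 0.25, adjusted p 0.0299). U1, the highest of the uridine libraries, stayed below T1, the lowest of the TGF-β libraries. HBP1 shares exonic sequence with COG5 on the opposite strand, so that its reads are uncertain. SGK1, a kinase that is itself induced by serum and glucocorticoids, was at 38.4, 33.9 and 37.7 CPM against 59.4, 62.2 and 59.3 CPM (adjusted p 0.00397). TXNIP, which restrains glucose uptake, was at 46.9, 42.6 and 44.1 CPM against 63.3, 63.2 and 62.4 CPM (adjusted p 0.0129). In both genes the uridine libraries lay close together and below all TGF-β libraries. The receptor IGF1R was at 292, 295 and 280 CPM against 390, 383 and 391 CPM (adjusted p 0.0152). Its adaptor IRS2 was at 12, 11.6 and 12.5 CPM against 16.1, 17.5 and 18.3 CPM (adjusted p 0.0423). FOXO4 itself was 1.90-fold lower (adjusted p 0.0449).

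The promoter of HBP1 is shown because it holds the forkhead motif GTAAACA, in capitals, in the 250 bases before the first of its 2 listed starts that has the motif (chr7:107168753-107169002, plus strand, RefSeq, GRCh38.p14).
HBP1: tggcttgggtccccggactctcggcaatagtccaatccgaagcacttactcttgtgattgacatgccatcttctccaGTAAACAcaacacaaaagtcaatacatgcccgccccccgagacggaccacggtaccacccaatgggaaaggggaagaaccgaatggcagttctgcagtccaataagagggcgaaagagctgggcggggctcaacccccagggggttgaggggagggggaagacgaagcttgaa
The motif, on either strand, was in 2.93% of the promoters of tested genes, in 1.79% of those of genes called higher and in 4.62% of those of genes called lower, which were 2 and 6 genes.

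Autophagy genes, on another list written after values had been seen, had 6 of 23 tested genes lower and 0 higher, with a median of −0.21 (DESeq2 0 and 9, unadjusted 0 and 10). Of these, GABARAPL1 and PINK1 are also on the FOXO list. ULK1, the kinase that starts autophagosome formation, was at 143, 138 and 135 CPM against 216, 198 and 197 CPM (log2 fold change −0.55, SE 0.07, adjusted p 0.00794). Its partner ATG13 was at 87.5, 98.6 and 83.9 CPM against 121, 120 and 123 CPM (adjusted p 0.0272). The cargo receptor NBR1 was at 18.8, 16.1 and 18.0 CPM against 29, 30.5 and 33.3 CPM (adjusted p 0.00806). In all of these the uridine libraries were wholly below the TGF-β libraries. CALCOCO1, a receptor for the endoplasmic reticulum, was 1.91-fold lower. PINK1, the kinase that marks damaged mitochondria, was 1.45-fold lower and GABARAPL1, which binds such receptors to the autophagosome, was 1.26-fold lower. Leaving out 1 library gave 0 to 11 lower genes on this list.

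Among hypoxia-induced and glycolysis genes 4 of 32 were lower and 0 higher, with a median log2 fold change of −0.04 (DESeq2 0 and 6, unadjusted 1 and 10). Beside NDRG1 these were CA9, DDIT4 and the mitophagy receptor BNIP3L, of which DDIT4 and BNIP3L are also on the FOXO list. CA9, a carbonic anhydrase, was at 39.4, 39.6 and 36 CPM against 54.2, 49.5 and 53.7 CPM (adjusted p 0.0258). DDIT4, an inhibitor of mTORC1, was at 217, 245 and 213 CPM against 313, 298 and 301 CPM (adjusted p 0.0272). BNIP3L was at 3.05, 2.78 and 5.23 CPM against 7.84, 10.9 and 10.5 CPM (adjusted p 0.0356). Each had its lowest TGF-β library above its highest uridine library. The glycolytic enzymes of the list were not among the called genes. NDRG1 was the 1 gene of the list that kept its call without each of T1, T2, T3 and U1. The motif ACGTG of hypoxia-inducible factors was in 28.9% of the promoters of tested genes. It was in 30.4% of those of genes called higher and in 26.2% of those of genes called lower.

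Of 19 tested growth arrest genes 2 were lower and 0 higher (DESeq2 1 and 3, unadjusted 2 and 5), and both of the lower genes encode inhibitors of cyclin-dependent kinases. CDKN2B, the inhibitor p15 that TGF-β induces in many cells, was at 35.4, 35.7 and 39.6 CPM against 61.1, 60.4 and 61.6 CPM (log2 fold change −0.73, SE 0.07, adjusted p 0.0036). CDKN1C, the inhibitor p57, was at 24.7, 29.6 and 25.2 CPM against 43.2, 43.3 and 44.5 CPM (log2 fold change −0.72, SE 0.09, adjusted p 0.00907). Of 29 replication and mitosis genes 0 were called, with a median of 0.02, that of all genes (DESeq2 0 and 2, unadjusted 1 and 4).

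Genes of adhesion and the cytoskeleton had 4 of 30 tested members lower and 0 higher, and a median log2 fold change of −0.15 (DESeq2 1 and 8, unadjusted 1 and 10). These included AHNAK2 and VCL. The focal adhesion protein VCL was at 217, 189 and 201 CPM against 260, 269 and 258 CPM (log2 fold change −0.38, SE 0.07, adjusted p 0.0356), and its groups did not overlap. Of 7 keratins 0 passed the test (DESeq2 0 and 1, unadjusted 0 and 2), and all 7 fold changes were negative, against 46.4% of those of all tested genes. The list held the hair keratins KRT81 and KRT86 beside simple keratins such as KRT7 and KRT18. KRT7 was at 2169, 2799 and 2056 CPM against 3164, 3027 and 3125 CPM (adjusted p 0.113), and KRT18 at −0.30 (SE 0.12, adjusted p 0.214). In KRT7 the value of U2 lay well above those of U1 and U3. The summed FPKM of the 7 keratins was 5034 to 5716 with uridine and 6060 to 6281 without it, and its part in other results was not tested.

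Inflammatory genes had 3 of 11 tested members higher, 0 lower and a median log2 fold change of 0.26 (DESeq2 3 and 0, unadjusted 6 and 0). These were CCL2, which attracts monocytes, CSF1 and NFKBIA. The macrophage growth factor CSF1 was at 9, 8.94 and 6.91 CPM against 4.54, 4.03 and 4.76 CPM (log2 fold change 0.90, SE 0.17, adjusted p 0.0367). NFKBIA, the inhibitor IκBα, was at 50.3, 50.9 and 50.1 CPM against 41.7, 39.6 and 39 CPM (log2 fold change 0.33, SE 0.07, adjusted p 0.0449). Neither gene had overlapping groups. NKILA, a non-coding RNA that restrains NF-κB, was at 3.29, 4.22 and 2.74 CPM against 7.34, 8.42 and 8.20 CPM (adjusted p 0.0227). It overlaps exons of PMEPA1, a TGF-β target on the opposite strand. Of 20 interferon-stimulated genes 1 was lower and 0 were higher (DESeq2 0 and 4, unadjusted 0 and 6). This was OASL (7.83, 12.2 and 6.62 CPM against 18.9, 19.9 and 21.1 CPM), and ISG15 was at −0.65 (SE 0.16, adjusted p 0.0753).

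In the remaining lists 2 genes or fewer passed. HMOX1 and MT1X were the 2 lower genes of 24 antioxidant and NRF2 genes, whose median was −0.14 (DESeq2 0 and 4, unadjusted 1 and 7). MT1X was also the 1 lower gene of 4 tested metallothioneins, a list written after values had been seen (DESeq2 0 and 2, unadjusted 0 and 3). Of 11 genes of retinoid handling CRABP2, which carries retinoic acid to the nucleus, was higher (22.1, 25.1 and 23.0 CPM against 16.2, 17 and 13.7 CPM, adjusted p 0.0381). GPRC5A, a receptor gene induced by retinoic acid, was lower (108, 109 and 96.7 CPM against 177, 178 and 165 CPM, adjusted p 0.0036), so that the 2 called genes of this list went in opposite directions (DESeq2 1 and 1, unadjusted 2 and 1). XBP1, a transcription factor of the unfolded protein response, was the 1 lower gene of 23 genes of that response (adjusted p 0.0453), with 0 higher (DESeq2 1 and 2, unadjusted 2 and 3). Of 13 mitochondrially encoded genes 1 was lower and 0 were higher, and the median log2 fold change was −0.17 (DESeq2 0 and 4, unadjusted 0 and 5). The lower gene was ND6, at 598, 731 and 734 CPM against 1079, 1102 and 1226 CPM (log2 fold change −0.72, SE 0.10, adjusted p 0.0141). ND6 is the messenger RNA made from the strand opposite to the other 12. ND1 (log2 fold change −0.43, adjusted p 0.114), ND2 (−0.43, adjusted p 0.108) and ATP6 (−0.34, adjusted p 0.184) also had uridine libraries wholly below the TGF-β libraries. Of 17 tested stellate and fibroblast markers 0 were called (DESeq2 0 and 1, unadjusted 0 and 2), nor was any of 7 tested epithelial markers (DESeq2 0 and 2, unadjusted 0 and 2).

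**Figure D5:**
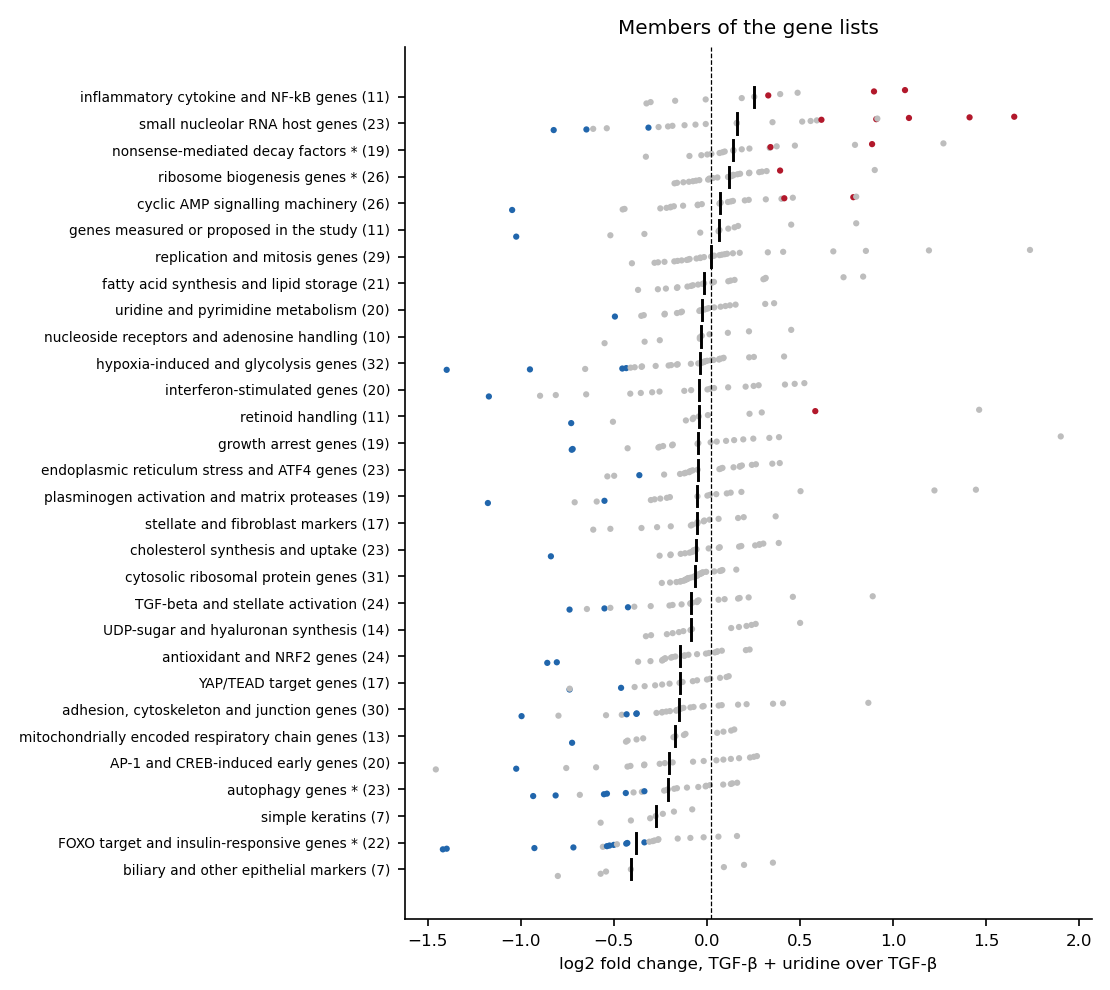
Each point is a tested member of a gene list, placed by its log2 fold change of TGF-β + uridine over TGF-β (red called higher, blue called lower, grey not called). Black bars are list medians, the dashed line is the median of all tested genes (0.02), the number of tested members is in brackets, and an asterisk marks lists written after values had been seen. FOXO and autophagy genes hold the most blue points, and host genes of small nucleolar RNAs hold both colours. The list drawn as simple keratins also holds the hair keratins KRT81 and KRT86.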

How the data were processed

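RNA of LX-2 cells was sequenced from VAHTS Universal V6 libraries by a commercial provider. The authors deposited whole-number read counts per gene symbol for 20777 genes, not normalized, and the FPKM of the same genes, which served for checking lengths and for list totals. The submitters' processing notes name fastp, HISAT2, HTSeq and R 3.2.0 and the build GRCh38.p13, with no roles given, and use of strand in counting was not given in the sources used here.

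The 3 TGF-β + uridine libraries were compared with the 3 TGF-β libraries in edgeR 4.0.16 under R 4.3.3 (filterByExpr, TMM, glmQLFit, glmQLFTest, two-sided), with adjustment over 13011 genes. The common biological coefficient of variation was 0.193. An exact permutation test of CPM was run for each named gene, which for 3 against 3 cannot give a p below 0.1 and gave no smaller one. On simulated counts with known changes, the script was tested before use. The simulated libraries all had the same spread, so that the wider spread among the uridine libraries was not covered. At this depth 3 counts, the limit that a count of 0 allows, are 0.0723 to 0.0735 CPM, which covers counting error only.

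Same-numbered libraries did not pair, and the replicate block is given with the alternatives. These were upper-quartile and RLE normalization, DESeq2 1.42.0, limma-trend (limma 3.58.1, prior count 2), other filters, 9 libraries, GC corrections (loess span 0.3) and each library left out. Positions are from GENCODE on GRCh38 for 17587 genes, and promoters are RefSeq sequences on GRCh38.p14.

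Named genes are the 12 largest increases and decreases among called genes whose mean log2 CPM reached 1, the genes the study measured, the called members of the lists with up to 4 of the smallest p in each, and the 4 most abundant called genes in each direction. Results for some genes within this rule are not reported here. The members and all lists were chosen with earlier results of these data known, and 5 of the lists were added later still, after values of this comparison had been seen.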

Additional observations from a re-analysis of the deposited data

How the results depend on the processing

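The number of genes called was sensitive to the processing. The direction of the 317 called genes was the same in every alternative in which they could be fitted. Since the groups of these genes did not overlap, their direction could hardly have changed, and this is no test of it. Genes higher and lower numbered 301 and 303 with upper-quartile normalization, 508 and 585 with DESeq2, 1482 and 1421 with a covariate for the GC slope, 528 and 720 with GC and length offsets, 16 and 18 at an absolute log2 fold change of at least 1, and 1259 and 1205 at an unadjusted p under 0.05. With no filter on low counts 231 were higher and 254 lower. With all 9 libraries in 1 edgeR model 0 were higher and 6 lower, where 1177 had an unadjusted p under 0.05. The cause of these differences was not tested. RLE normalization gave 128 and 170, limma-trend 139 and 184, and a minimum of 10 counts in each library 148 and 177.

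Leaving out 1 library gave 6 to 1168 genes higher and 8 to 1282 lower. Those without U2 (1168 and 1282) were the most, those without U3 were 254 and 196, and without T1, T2, T3 or U1 there were 12 and 17, 6 and 8, 8 and 15, and 12 and 21. Deviations of same-numbered libraries correlated at −0.141, −0.103 and −0.036, so that the numbers were taken as names, and no library correlated best with its own number. With the replicate block 18 genes were higher and 32 lower, and with the block and the GC slope together 868 and 879.

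Among the genes named, the log2 fold change of COL3A1 ran from −0.0097 without U3 to 0.433 without U2, and that of UPP1 from −0.187 without U2 to 0.0428 without U3, with 0.0134 without T1 and 0.026 without U1. COL3A1 without U3 and UPP1 without T1, U1 or U3 thus had the opposite sign to the reported value, and none of these passed the threshold. Genes with few reads, such as CREB1 and EGR1, had the largest standard errors, and their changes are the least precise.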
